A study of Mus musculus with 6 samples.

Results

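The glucocorticoid receptor and 9 genes that it is known to induce were followed in mouse cerebral cortex after an astrocyte-directed knockdown of Fabp7. The 10 genes were taken by name as the receptor gene Nr3c1 and the targets Fkbp5, Tsc22d3, Sgk1, Klf9, Hif3a, Zbtb16, Map3k6, Errfi1 and Cdkn1a. They are 10 of the 49315 genes in the count files, and all 10 passed the filter on low counts that left 17185 genes for testing. The study sequenced cortex RNA from 6 libraries of wild type mice, in 3 of which the mice had received AAV-PHP.eB-Gfap-GFP-shFABP7 (shFabp7) and in 3 AAV-PHP.eB-Gfap-GFP-shScr, a scrambled sequence (shScr). AAV-PHP.eB is an engineered viral capsid that enters the mouse brain from the blood, and the Gfap promoter directs the short hairpin RNA to astrocytes. Mice were 21 days old when the vector was given, and both groups then had lipopolysaccharide (LPS, a bacterial product that sets off inflammation) at 1 mg/kg once a week for 3 weeks from 4 months of age. Tissue was collected 24 h after the last injection. Every library came from an LPS-treated mouse, so the response to LPS itself was not measured. The labels do not state that each library is a separate animal, and the p-values therefore measure the spread between these libraries, which may be in part technical.

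The glucocorticoid receptor is a nuclear receptor held in the cytoplasm by heat shock proteins until corticosterone, the main glucocorticoid of mice, binds it. The receptor then enters the nucleus and binds DNA words called glucocorticoid response elements, where it raises the transcription of genes such as Fkbp5 and Tsc22d3, and it also restrains inflammatory genes. In brain, astrocytes, endothelial cells and many neurons carry the receptor, and mineralocorticoid receptors (Nr3c2) bind the same hormone with higher affinity.

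Total counts were 16966118, 16914012 and 18991235 in shFabp7 libraries 1 to 3 and 17789433, 18760154 and 18105596 in shScr libraries 1 to 3. Fabp7, the targeted gene, had 93, 41 and 66 reads in the shFabp7 libraries and 484, 285 and 290 in the shScr libraries (log2 fold change -2.31, SE 0.35, adjusted p = 0.0704 by edgeR's quasi-likelihood test). The libraries also differed in ways that the labels do not give. Reads of Xist and of 4 Y-linked genes marked shFabp7 library 1 and shScr libraries 1 and 2 as male and the other 3 as female, so that neither group came from a single animal, although shFabp7 library 2 also had 223 Y-linked reads. Cortical excitatory neuron markers, 6 genes, summed to 5599 to 6396 CPM (counts scaled by library size and TMM factors) in the shFabp7 libraries. In the shScr libraries the sum was 3869.6 to 5158 CPM. Camk2a carried most of these sums, and 4 of the 6 markers overlapped between the groups. Thalamic and hypothalamic markers, 8 genes, summed to 35.9 to 39.9 CPM in the shFabp7 libraries and 49.3 to 154 CPM in the shScr libraries, with shScr library 1 the highest. Astrocyte markers, 10 genes, summed to 4949 to 5426 CPM in the shFabp7 libraries and 4727 to 5202 CPM in the shScr libraries, a sum carried mostly by Slc1a2, the glial glutamate transporter. Single astrocyte markers did not move together: 4 lay wholly lower in the shFabp7 libraries (Gfap, Aqp4, Slc1a3 and Sox9) and 2 wholly higher (Gjb6 and Aldh1l1). Gfap averaged 154 ± 18.1 CPM in shFabp7 and 267 ± 39.1 CPM in shScr (SD, n = 3 each; log2 fold change -0.79, adjusted p = 0.0597 by edgeR). Endothelial markers, 8 genes, summed to 354 to 365 CPM in the shFabp7 libraries and 296 to 387 CPM in the shScr libraries. No marker of these 4 lists was at 0 in every library.

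Promoter sequence of the target genes was searched for the words that the receptor is known to bind. RefSeq promoter windows of GRCm38.p6, each running from 250 bases before a gene's start to 50 bases after it, were at hand for 8 of the 10 genes (17 windows, since some genes have several starts). The classical element is a pair of 6-base sites that face each other across 3 free bases. The core word ACANNNTGT, which reads the same on both strands, was in 6.85% of all 32851 windows. Among the 8 genes it was in 3 of the 17 windows, which belonged to Map3k6 and Sgk1. The stricter word GNACANNNTGTNC, which contains the core, was in 0.475% of all windows and in 2 of the 17, again of Map3k6 and Sgk1. The single site AGAACA, counted on either strand, was in 19% of all windows and in 4 of the 17, which belonged to Sgk1 and Tsc22d3. The full palindrome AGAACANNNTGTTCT was in 3 of all windows, 0.00913%, and 1 of them belonged to Sgk1. It holds each of the other words, so that Sgk1 window is also counted for each of them. Below are windows of Map3k6, Tsc22d3 and Hif3a, whose libraries separated the groups, and of Sgk1, whose libraries did not. Each is written 5′ to 3′ on the strand of the gene. Capitals mark the GNACANNNTGTNC match in Map3k6 at chr4:133240568-133240867 (plus strand), 181 to 169 bases before the start. They mark the palindrome in Sgk1 at chr10:21993640-21993939 (plus strand), 189 to 175 bases before the start, and the reverse complement of AGAACA in Tsc22d3 at chrX:140600473-140600772 (minus strand), 185 to 180 bases before the start. The Hif3a window at chr7:17062378-17062677 (minus strand) held none of these words and is shown because Hif3a had the lowest adjusted p of the 10 genes.
Map3k6: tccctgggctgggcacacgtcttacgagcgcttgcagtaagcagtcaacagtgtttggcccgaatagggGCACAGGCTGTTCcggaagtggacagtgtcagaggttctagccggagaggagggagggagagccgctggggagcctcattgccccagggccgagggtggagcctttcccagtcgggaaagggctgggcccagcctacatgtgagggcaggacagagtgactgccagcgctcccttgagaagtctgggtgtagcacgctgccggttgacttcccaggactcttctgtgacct
Sgk1: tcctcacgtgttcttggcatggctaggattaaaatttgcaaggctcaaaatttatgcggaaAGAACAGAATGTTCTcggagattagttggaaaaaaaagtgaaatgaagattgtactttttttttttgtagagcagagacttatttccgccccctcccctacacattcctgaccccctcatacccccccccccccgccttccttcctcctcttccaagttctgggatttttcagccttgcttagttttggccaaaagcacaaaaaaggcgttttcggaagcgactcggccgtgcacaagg
Tsc22d3: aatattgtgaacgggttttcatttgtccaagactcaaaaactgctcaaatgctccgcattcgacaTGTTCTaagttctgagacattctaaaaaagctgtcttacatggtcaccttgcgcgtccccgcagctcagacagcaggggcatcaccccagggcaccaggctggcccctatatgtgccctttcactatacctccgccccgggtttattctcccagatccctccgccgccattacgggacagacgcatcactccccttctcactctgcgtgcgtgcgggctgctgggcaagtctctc
Hif3a: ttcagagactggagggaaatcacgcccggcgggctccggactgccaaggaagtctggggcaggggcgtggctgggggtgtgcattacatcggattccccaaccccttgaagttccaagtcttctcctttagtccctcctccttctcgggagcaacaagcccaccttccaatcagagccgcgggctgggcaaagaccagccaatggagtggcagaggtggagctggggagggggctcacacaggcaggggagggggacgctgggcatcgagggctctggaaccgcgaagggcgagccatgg
A match in these windows is a description of the letters, and a window without one says nothing about elements elsewhere in the gene.

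In shFabp7 cortex, 4 of the 9 targets (Tsc22d3, Klf9, Hif3a and Map3k6) were higher in every library than in any shScr library, by 1.4-fold to 1.72-fold, while Nr3c1 itself and the other 5 targets overlapped between the groups. Over all genes tested, 11.4% lay wholly higher in the shFabp7 libraries and 11.5% wholly lower. None of the 10 genes passed an adjusted p of 0.05 in edgeR's quasi-likelihood test, where 0.116% of all genes did. At an unadjusted p under 0.05, 5 of the 10 passed, all of them higher (Fkbp5, Tsc22d3, Klf9, Hif3a and Map3k6), beside 8.44% of all genes tested that passed as higher. By DESeq2, another count test, Tsc22d3, Klf9, Hif3a and Map3k6 passed an adjusted p of 0.05 as higher, beside 2.35% of the 16538 genes that it tested. The median log2 fold change of the 9 targets was 0.28, and that of all genes tested was -0.0065. Of the 10 genes, 9 had a log2 fold change above 0, against 48.5% of all genes. The 10 genes were chosen with earlier results of these data known, so these counts describe them and are not independent support. The excitatory neuron marker sums, carried mostly by Camk2a, also lay wholly higher in the shFabp7 libraries, although 4 of the 6 markers overlapped between the groups. Of the separated astrocyte markers, Gjb6 and Aldh1l1 were likewise wholly higher, while Gfap, Aqp4, Slc1a3 and Sox9 were wholly lower. The part of these markers in the result was not tested.

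**Figure D1:**
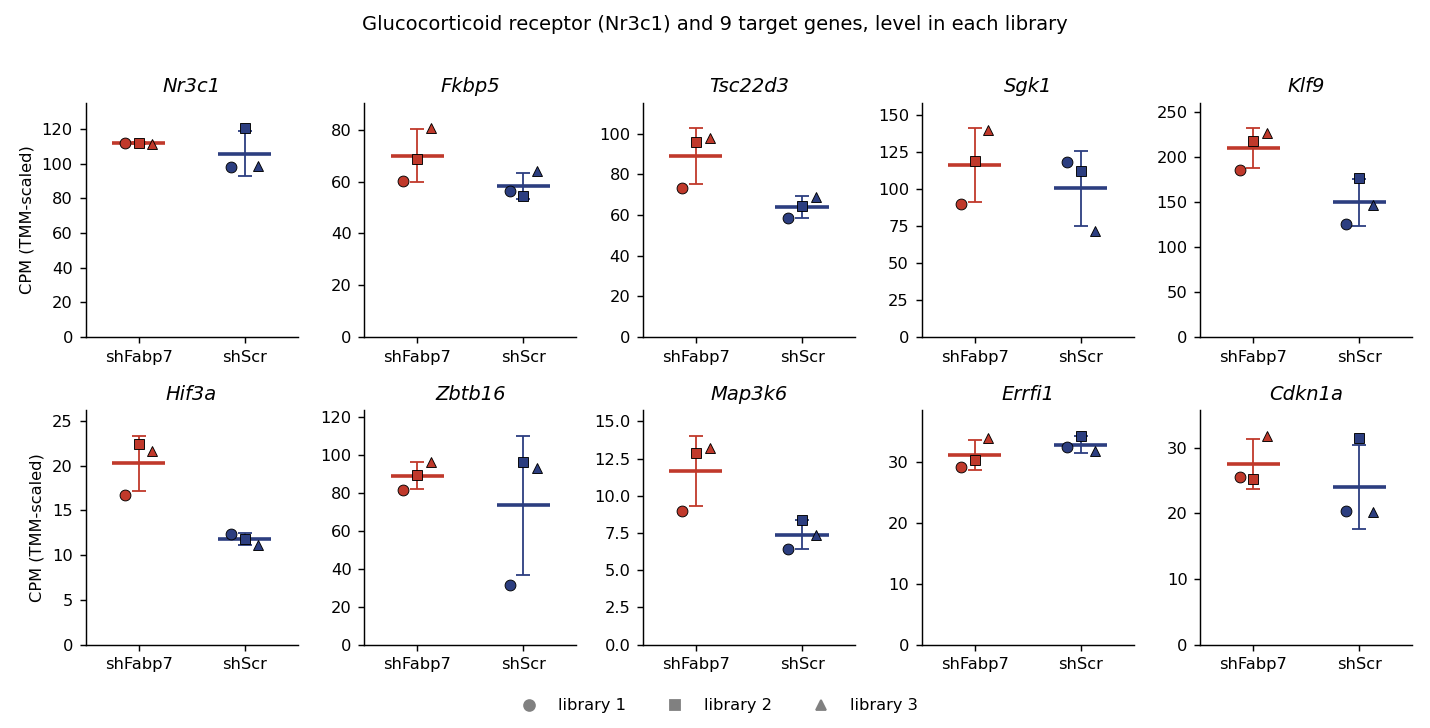
Levels of the 10 genes in CPM after TMM scaling by library, 1 panel per gene, with shFabp7 on the left and shScr on the right of each panel. Points are libraries, and the bar with its whiskers is the mean ± SD over 3 libraries. The groups separate for Tsc22d3, Klf9, Hif3a and Map3k6 and overlap for the other 6 genes.

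Nr3c1, which encodes the receptor, was level across the shFabp7 libraries. The gene (ENSMUSG00000024431) lies on chromosome 18 from 39410545 to 39491301 on the minus strand of GRCm38, the build of all gene positions given here. It had 112, 112 and 111 CPM in shFabp7 libraries 1 to 3, against 97.7, 120.5 and 98.8 CPM in shScr libraries 1 to 3. All 3 shFabp7 values lay inside the shScr range. The log2 fold change was 0.08 (SE 0.08, adjusted p = 0.66 by edgeR), and the means were 112 ± 0.941 CPM in shFabp7 and 106 ± 12.8 CPM in shScr (SD, n = 3 each). Nr3c2, the mineralocorticoid receptor, had 37.2, 38.4 and 37.2 CPM in the shFabp7 libraries and 48.3, 35.9 and 61.7 CPM in the shScr libraries, again with the shFabp7 values inside the shScr range (log2 fold change -0.37, SE 0.18, adjusted p = 0.364 by edgeR). Reads of Nr3c1 per read of Nr3c2 were 3.02, 2.93 and 2.98 in the shFabp7 libraries and 2.02, 3.36 and 1.6 in the shScr libraries. The log2 ratio differed by 0.42 between the groups, less than the SD of 0.55 among the shScr libraries (exact two-sided permutation test, p = 0.4, where 3 against 3 cannot go below 0.1).

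Fkbp5 and Tsc22d3 are among the most widely used readouts of the receptor. Fkbp5 encodes a co-chaperone that lowers the receptor's affinity for hormone and so forms a short feedback loop (ENSMUSG00000024222, chromosome 17, 28399095 to 28517524, minus strand). It had 60.4, 68.9 and 80.8 CPM in shFabp7 libraries 1 to 3, against 56.5, 54.4 and 64.0 CPM in shScr libraries 1 to 3. The groups overlapped because shFabp7 library 1 lay below shScr library 3. Its log2 fold change was 0.27 (SE 0.11, adjusted p = 0.273 by edgeR). Tsc22d3 encodes GILZ, a leucine zipper protein that mediates anti-inflammatory effects of glucocorticoids (ENSMUSG00000031431, chromosome X, 140539528 to 140600659, minus strand). It had 73.4, 96.0 and 98.1 CPM in shFabp7 libraries 1 to 3, against 58.3, 64.3 and 69.0 CPM in shScr libraries 1 to 3. Every shFabp7 library lay above every shScr library, and shFabp7 library 1 was closest to the shScr range. The means were 89.2 ± 13.7 CPM in shFabp7 and 63.9 ± 5.36 CPM in shScr (SD, n = 3 each). The log2 fold change of Tsc22d3 was 0.48 (SE 0.12), with an adjusted p of 0.125 by edgeR and 0.00839 by DESeq2.

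Klf9, Hif3a and Zbtb16 encode transcription regulators. Klf9 is a Krüppel-like factor induced by glucocorticoids and thyroid hormone in neurons (ENSMUSG00000033863, chromosome 19, 23141226 to 23166911, plus strand). It had 185, 218 and 227 CPM in shFabp7 libraries 1 to 3, against 125, 177 and 147 CPM in shScr libraries 1 to 3. The groups did not overlap, although shFabp7 library 1 and shScr library 2 lay close together. Its log2 fold change was 0.49 (SE 0.14), with an adjusted p of 0.165 by edgeR and 0.00989 by DESeq2. Hif3a encodes a hypoxia-inducible factor subunit of which some forms restrain the other HIF proteins (ENSMUSG00000004328, chromosome 7, 17031507 to 17062427, minus strand). It had 16.7, 22.4 and 21.7 CPM in shFabp7 libraries 1 to 3, against 12.4, 11.8 and 11.1 CPM in shScr libraries 1 to 3. The shScr libraries lay close together, and the lowest shFabp7 library was well above them. The log2 fold change was 0.78 (SE 0.13), with an adjusted p of 0.0562 by edgeR and 0.000203 by DESeq2. Zbtb16 encodes PLZF, a zinc finger repressor (ENSMUSG00000066687, chromosome 9, 48654297 to 48836222, minus strand). It had 81.6, 89.4 and 96.0 CPM in shFabp7 libraries 1 to 3, against 31.2, 96.4 and 92.8 CPM in shScr libraries 1 to 3. One low library, shScr 1, set its mean apart, and that library also had the highest thalamic and hypothalamic marker sum, 154 CPM; the part of those markers in the Zbtb16 value was not tested. The log2 fold change of Zbtb16 was 0.28 (SE 0.47, adjusted p = 0.817 by edgeR), and without shScr library 1 it was -0.09.

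Sgk1, Map3k6, Errfi1 and Cdkn1a encode kinases and regulators of growth signalling. Sgk1, the serum- and glucocorticoid-regulated kinase, acts on ion channels and transporters (ENSMUSG00000019970, chromosome 10, 21882184 to 21999903, plus strand). It had 90.1, 119 and 139.7 CPM in shFabp7 libraries 1 to 3, against 118, 112 and 71.3 CPM in shScr libraries 1 to 3. Both groups were spread widely and overlapped, with a log2 fold change of 0.21 (SE 0.26, adjusted p = 0.745 by edgeR). Map3k6 encodes a stress-activated kinase of the MAP kinase cascade (ENSMUSG00000028862, chromosome 4, 133240818 to 133252929, plus strand). It had 8.97, 12.9 and 13.2 CPM in shFabp7 libraries 1 to 3, against 6.42, 8.35 and 7.37 CPM in shScr libraries 1 to 3. The groups did not overlap, and shFabp7 library 1 lay just above shScr library 2. The log2 fold change was 0.67 (SE 0.18), with an adjusted p of 0.126 by edgeR and 0.036 by DESeq2.

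Errfi1 encodes MIG6, an inhibitor of the epidermal growth factor receptor (ENSMUSG00000028967, chromosome 4, 150853919 to 150868892, plus strand). It had 29.3, 30.4 and 34.0 CPM in shFabp7 libraries 1 to 3, against 32.5, 34.4 and 31.8 CPM in shScr libraries 1 to 3. It was the 1 gene of the 10 with a log2 fold change below 0, at -0.07 (SE 0.08, adjusted p = 0.702 by edgeR), and its groups overlapped. Cdkn1a encodes p21, an inhibitor of cyclin-dependent kinases (ENSMUSG00000023067, chromosome 17, 29090979 to 29100722, plus strand). It had 25.6, 25.2 and 31.9 CPM in shFabp7 libraries 1 to 3, against 20.4, 31.5 and 20.2 CPM in shScr libraries 1 to 3. The high shScr library 2 reached the top of the shFabp7 range, and the log2 fold change was 0.20 (SE 0.19, adjusted p = 0.651 by edgeR). In bulk tissue, fewer or more cells of a type and less or more RNA per cell cannot be told apart for any of these genes.

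**Figure D2:**
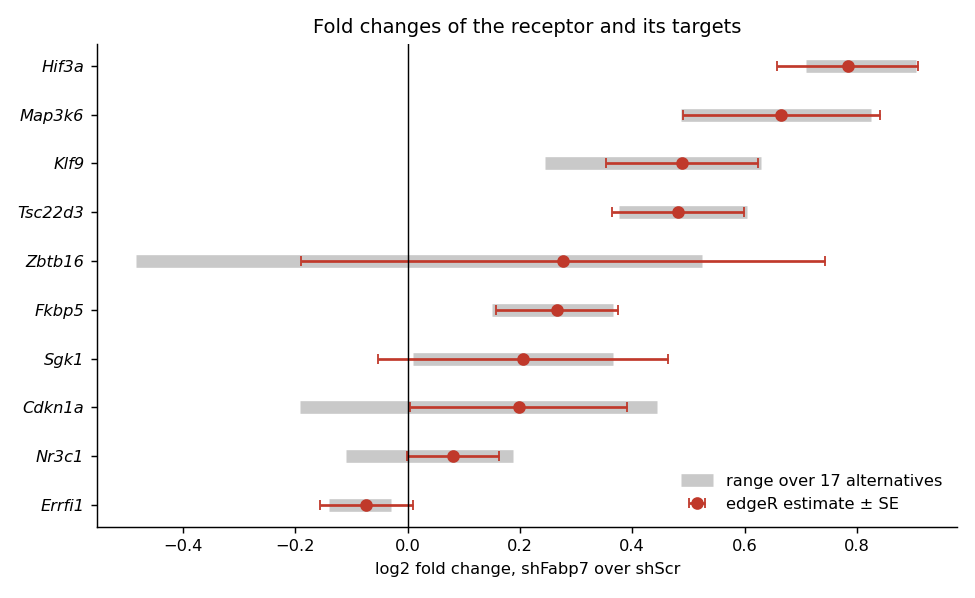
Log2 fold changes (shFabp7 minus shScr, points) with their SE (whiskers) from edgeR for the 10 genes, over grey bars for the range across 17 alternative fits. Hif3a is farthest from 0, at 0.78, and Errfi1 is the only gene below 0, at -0.07.

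The 10 genes spanned a wide range of levels. Per transcript length, in TPM (counts divided by exon length and scaled to a common sum) averaged over the 6 libraries, Klf9 was highest at 197 TPM, and its lowest library (141 TPM) lay above the highest Sgk1 library (103 TPM). Sgk1 followed at 79.0 TPM, Tsc22d3 at 63.0 TPM, Zbtb16 at 54.7 TPM, Nr3c1 at 52.2 TPM, Cdkn1a at 41.4 TPM, Fkbp5 at 36.0 TPM and Errfi1 at 32.0 TPM. Neighbours in that stretch overlapped in their libraries, so their order is not beyond their spread. Hif3a, at 8.54 TPM (5.93 to 11.7 TPM), and Map3k6, at 7.39 TPM (5.12 to 10.4 TPM), lay below every library of the other 8 genes and overlapped with each other.

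The 9 targets did not vary evenly over the libraries. Their mean log2 CPM, each gene centred on its own mean over the 6 libraries, was -0.02, 0.23 and 0.36 in shFabp7 libraries 1 to 3 and -0.36, -0.01 and -0.20 in shScr libraries 1 to 3. In this mean, shFabp7 library 1 and shScr library 2 were nearly alike, and shFabp7 library 3 and shScr library 1 were the ends. Among the 10 genes, shFabp7 library 3 was the highest library for 6, shScr library 2 for 3 and shFabp7 library 2 for 1. The lowest library was shScr library 1 for 5 genes, shScr library 3 for 3, shScr library 2 for 1 and shFabp7 library 1 for 1. Striatal markers, 7 genes, summed to 566, 455 and 1432 CPM in shFabp7 libraries 1 to 3. In shScr libraries 1 to 3 the striatal sum was 1059.8, 466 and 657 CPM. The part of striatal tissue in the order of the libraries was not tested.

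**Figure D3:**
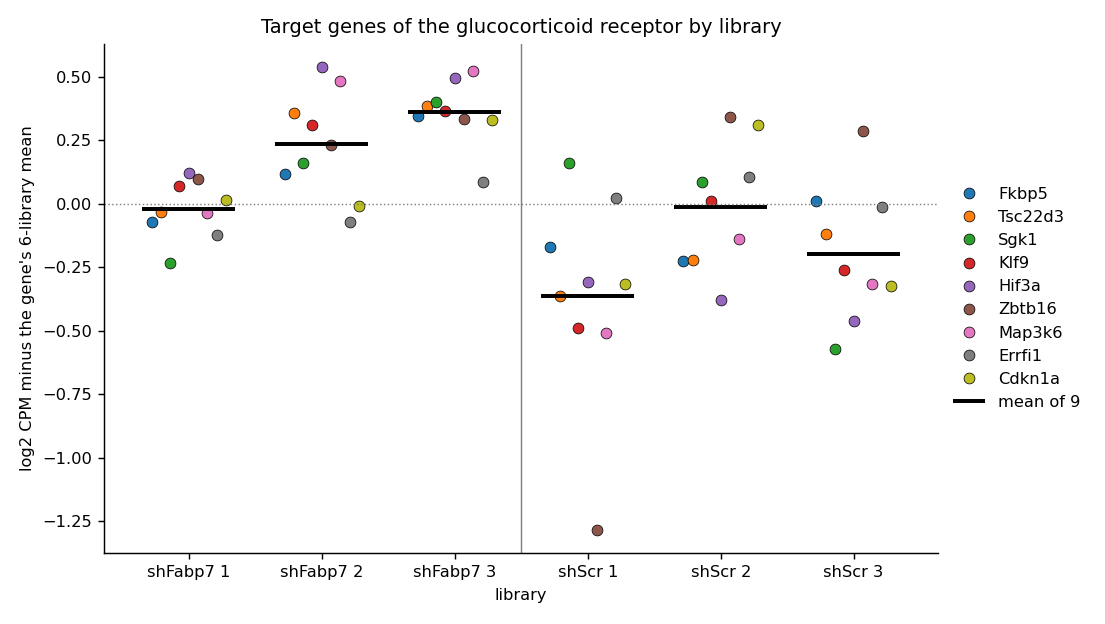
Centred log2 CPM of each of the 9 targets (points) and their mean (black line) in the 6 libraries, shFabp7 on the left and shScr on the right. The mean runs from -0.02 to 0.36 in the shFabp7 libraries and from -0.36 to -0.01 in the shScr libraries.

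Sex moved partly with the groups, and the differences were therefore also taken within each sex, with 1 shFabp7 against 2 shScr male libraries and 2 shFabp7 against 1 shScr female libraries. With sex as a term in edgeR, 0 of the 10 genes passed an adjusted p of 0.05, where 7 of 17185 genes did. In that fit Hif3a had a log2 fold change of 0.73 (adjusted p = 0.168), Tsc22d3 0.38 (0.18), Map3k6 0.56 (0.301) and Klf9 0.45 (0.337). Untested and within a sex, the mean log2 difference of the 9 targets, shFabp7 minus shScr, was 0.17 in males and 0.50 in females. Of the 9 targets, 7 were above 0 in males and 8 in females, and the share of all genes was not counted. Tsc22d3 differed by 0.26 in males and 0.49 in females, Klf9 by 0.31 and 0.60, Hif3a by 0.46 and 0.98, and Map3k6 by 0.29 and 0.82. Sgk1 was split, at -0.36 in males and 0.85 in females, as were Zbtb16, at 0.57 in males and -0.002 in females, and Errfi1, at -0.19 in males and 0.02 in females.

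Leaving out libraries moved these counts, and those over all genes with them. Without shScr library 2, 2 of the 10 genes (Klf9 and Hif3a) passed an adjusted p of 0.05 in edgeR, beside 5.14% of all genes, and 6 of the 10 lay wholly above the shScr libraries, beside 19.2% of all genes. Hif3a alone passed without shFabp7 library 1, where 0.0566% of all genes did, or without shScr library 1, where 1.04% did. The median log2 fold change of the 9 targets was 0.49 when shScr library 2 was left out and 0.47 when shScr library 3 was. Sgk1, at 0.21 with all libraries, was at 0.0095 without shScr library 3. A regional score averaged markers of hippocampus, striatum, thalamus and hypothalamus in log2 CPM, less the excitatory neuron average. It was -2.39, -4.6 and -3.86 in shScr libraries 1 to 3. In shFabp7 libraries 1 to 3 it was -5.04, -5.35 and -4.61, all below every shScr score, so score and knockdown cannot be fully told apart. With the score as a covariate in edgeR, 0 of the 10 genes passed an adjusted p of 0.05, where 18 of 17185 genes did. Log2 fold changes in that covariate fit were 0.835 for Hif3a (adjusted p = 0.122), 0.40 for Tsc22d3 (0.679), 0.49 for Map3k6 (0.644) and 0.25 for Klf9 (0.724). Without shScr libraries 1 and 3 together, 5 of the 10 lay above the 1 remaining shScr library, beside 28.2% of all genes, and 0 passed in edgeR, beside 0.662% of all genes. In that fit the spread comes from the shFabp7 libraries, on the assumption that the single shScr library varies as they do.

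The rest of the receptor pathway was described from 5 lists, also chosen with earlier results of these data known. Of 17 partners of the receptor (chaperones, co-chaperones, coactivators and corepressors, with Nr3c2), 0 passed the adjusted threshold and DESeq2 called 0. At an unadjusted p under 0.05, 2 passed, both higher, beside 8.44% of all genes as higher. The median log2 fold change of these partners was 0.04. The chaperones with the highest level, Hsp90ab1, Hspa8 and Hsp90aa1, which hold the receptor ready for hormone, had log2 fold changes of -0.01, 0.04 and -0.02 (adjusted p = 0.947, 0.773 and 0.931 by edgeR). Ncoa1, a coactivator, had 156, 163 and 152 CPM in the shFabp7 libraries and 138, 139.7 and 144 CPM in the shScr libraries. This coactivator gene was picked with its values known, and its adjusted p was 0.216 by edgeR.

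Of 6 genes that make, clear or export the hormone, 5 were tested and 0 passed in edgeR or DESeq2, with a median log2 fold change of 0.25. At an unadjusted p under 0.05, 1 was higher, beside 8.44% of all genes. Abcb1a, a blood-brain barrier pump that exports glucocorticoids, had a log2 fold change of 0.25 (adjusted p = 0.296 by edgeR). With the regional score as a covariate, the median of the list and the value of Abcb1a were both 0.055, and without shScr libraries 1 and 3 together they were 0.081 and 0.018. Hsd11b1, which regenerates active corticosterone, had 15.3, 17.5 and 14.5 CPM in the shFabp7 libraries and 7.13, 15.2 and 13.2 CPM in the shScr libraries, with shScr library 1 low (log2 fold change 0.41, adjusted p = 0.477 by edgeR). Srd5a1, a steroid reductase, had a log2 fold change of -0.03 (adjusted p = 0.962). Hsd11b2, which inactivates corticosterone, was not tested, with 10 reads in the shFabp7 libraries together and 11 in the shScr libraries.

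Among 28 other genes that glucocorticoids are known to induce, 17 had a log2 fold change above 0 and 11 below. Of these, 0 passed the adjusted threshold in edgeR, and the median log2 fold change was 0.04. At an unadjusted p under 0.05, 5 were higher and 3 lower, beside 8.44% and 8.32% of all genes. By DESeq2, 3 passed as higher and 0 as lower, beside 2.35% and 1.9% of all genes. Glul, the astrocyte glutamine synthetase, had 1940.1, 2083 and 2013 CPM in the shFabp7 libraries and 1536, 1674 and 1606 CPM in the shScr libraries, with no overlap (log2 fold change 0.33, SE 0.07, adjusted p = 0.072 by edgeR). Rhob, a small GTPase, had a log2 fold change of 0.28 (adjusted p = 0.159), and Ndrg2, an astrocyte gene of the same list, one of -0.06 (adjusted p = 0.729 by edgeR). Plin4, a lipid droplet coat protein picked with its values known, was farthest from 0 among the genes of the list. It had 19.4, 35.6 and 37.7 CPM in the shFabp7 libraries and 10.8, 7.71 and 11.4 CPM in the shScr libraries (log2 fold change 1.64, SE 0.30, adjusted p = 0.0987 by edgeR and 7.34e-09 by DESeq2). As for Tsc22d3, Fkbp5, Sgk1, Klf9, Map3k6, Zbtb16 and Errfi1, library 1 was the lowest and library 3 the highest of the shFabp7 libraries. Hif3a, Cdkn1a and Nr3c1 had another order, and the share of all genes with the order of Plin4 was not counted. Per1, a clock gene that glucocorticoids induce directly, was also picked with its values known and had a log2 fold change of -0.12 (adjusted p = 0.636 by edgeR).

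Of 14 inflammatory and hormone genes that glucocorticoids are known to repress, 8 had enough reads to test and 0 passed. By DESeq2, 1 passed as lower, beside 1.9% of all genes. At an unadjusted p under 0.05, 4 were lower and 0 higher, beside 8.32% of all genes as lower. In 5 of the 8, the shFabp7 libraries lay wholly below the shScr libraries, beside 11.5% of all genes. The median log2 fold change was -0.41. With a filter of 1 CPM in 3 libraries, 6 genes of the list were kept, and their median was -0.344. Vcam1, a vascular adhesion molecule, had a log2 fold change of -0.31 (adjusted p = 0.201), Ptgs2, the inducible cyclooxygenase, one of -0.44 (adjusted p = 0.585), and Crh, the hypothalamic releasing hormone that is also made in cortical interneurons, one of -0.13 (adjusted p = 0.791 by edgeR). Il1b, an inflammatory cytokine also picked with its values known, had 1 read in each shFabp7 library and 19, 12 and 12 reads in the shScr libraries. Il1b and Ccl2, another gene of the list, passed the filter on low counts only through the shScr libraries. They therefore count among the lower genes partly by how they were kept. The 6 genes not tested were Tnf, Il6, Ccl3, Ccl4, Nos2 and Sele, with 2 (Tnf) to 35 (Nos2) reads over the shFabp7 libraries together and 4 (Il6) to 34 (Nos2) over the shScr libraries. Microglia markers, 7 genes, moved with this list, at a sum of 378 to 419.97 CPM in the shFabp7 libraries and 431 to 449 CPM in the shScr libraries, and their part in it was not tested.

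The last list held 10 genes of the circadian clock and its output, since Per1, Klf9 and other targets are also under clock control. Of these, 0 passed the adjusted threshold, 4 were higher at an unadjusted p under 0.05, beside 8.44% of all genes, and 10 of 10 had a log2 fold change above 0, beside 48.5%. The shFabp7 libraries lay wholly above the shScr libraries for 6 of the 10, beside 11.4% of all genes, and wholly below for 0, and the median was 0.20. By DESeq2, 2 passed as higher, beside 2.35% of all genes. Hlf, Tef and Nr1d1, 3 clock-controlled transcription factors, had log2 fold changes of 0.58, 0.13 and 0.04 (adjusted p = 0.293, 0.331 and 0.88 by edgeR). Hlf was at 0.11 with the regional score as a covariate and at 0.25 without shScr libraries 1 and 3 together. The time of day at which tissue was taken is not in the labels.

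**Figure D4:**
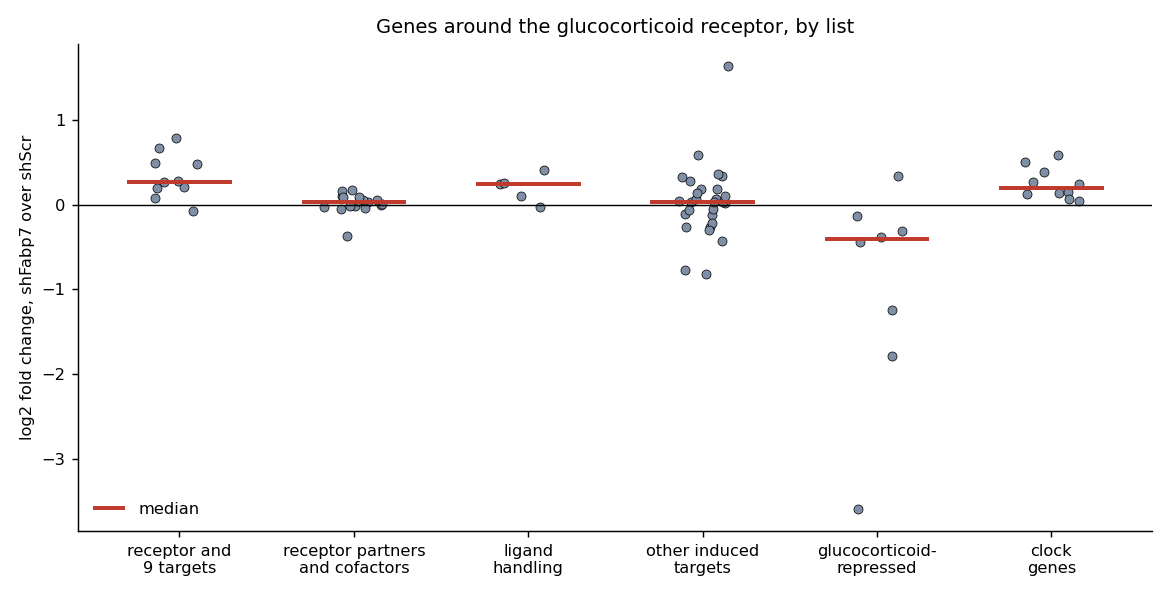
Log2 fold changes (shFabp7 minus shScr, from edgeR) of each tested gene among the receptor with its 9 targets and in the 5 other lists, 1 point per gene, with the median of each list marked. The medians are 0.27 for the receptor and its targets, 0.04 for receptor partners, 0.25 for hormone handling, 0.04 for other induced genes, -0.41 for repressed genes and 0.20 for clock genes.

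The genes whose profile over the 6 libraries was most like the mean of the 9 targets were Ano3, Rgs7bp, Slc2a1, Eef2k and Tns1, out of 15511 genes with a mean of at least 1 CPM outside the lists. Their root mean square difference from that mean, on centred log2 CPM, was 0.04, 0.05, 0.05, 0.06 and 0.06. Ano3 encodes an anoctamin membrane protein, Rgs7bp a partner of G protein regulators, Slc2a1 the glucose transporter of the blood-brain barrier, Eef2k a kinase of translation elongation and Tns1 a focal adhesion protein. Their log2 fold changes were 0.43, 0.41, 0.30, 0.32 and 0.37, values that follow from how they were chosen.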

How the data were processed

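RNA was measured in 6 cortex libraries, 3 per group, grouped by sample titles. What the authors deposited are raw counts of reads per gene and library, which have the columns that featureCounts writes, per the file headers. Tools listed without role or order in the submitters' processing notes are STAR 2.5.2b, Trimmomatic 0.36, DESeq2 and Subread 1.5.2, beside the build GRCm39. Positions in the files read as GRCm38: of 49056 gene IDs in GENCODE M21, 44858 (91.4%) had the same position, as did 6 of the 10 genes. A stranded mRNA kit with 0.5 µg of total RNA was used, per the labels' protocols, but whether counting used strand is not stated in the sources at hand, and antisense reads cannot be told apart. No exon of another gene in the files overlapped the 10 genes.

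Genes were filtered with filterByExpr, scaled with TMM factors and tested with edgeR's quasi-likelihood test (edgeR 4.0.16, R 4.3.3, robust fit, group alone), two-sided, with Benjamini-Hochberg adjustment over all 17185 genes and a threshold of 0.05. Each SE is the log2 fold change over the square root of the F statistic. TPM used exon lengths from the files. The receptor ratio used a pseudocount of 0.5 reads, and centred log2 CPM a prior count of 2. The scripts were tested on simulated data. Counts per library, from 16914012 to 18991235, limit the precision of genes with few reads. No library was a copy of another (Pearson correlations of log2 CPM 0.970 to 0.990).

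The 10 genes and the lists were chosen with earlier results of these data known. Besides the 10 genes and Fabp7, each list named up to 4 genes past the threshold, filled to 3 with those of highest mean TPM, and the 5 genes most like the mean of the targets were named. Alternatives were DESeq2 1.42.0, other scalings, other filters, limma-voom (limma 3.58.1), sex or a regional score as covariates, the replicate number as a block, a threshold of 0.1 and libraries left out. The counts of genes wholly above shScr with libraries left out were added after seeing the data. Values of other list members are mostly left out, and 1 gene is not reported here.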

Additional observations from a re-analysis of the deposited data

How the results depend on the processing

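The sign of Fkbp5, Tsc22d3, Klf9, Hif3a, Map3k6 and Errfi1 was the same in all 17 alternatives, and that of Sgk1 too, though its range of 0.0095 to 0.37 reached nearly to 0. Log2 fold changes ranged from 0.71 to 0.91 for Hif3a, past the threshold in 7 alternatives, from 0.25 to 0.63 for Klf9 (4), from 0.38 to 0.60 for Tsc22d3 (3) and from 0.49 to 0.82 for Map3k6 (3). Against 20 of all genes called, DESeq2 called 703, no filter 1617, limma-voom 109, sex as a covariate 7, a threshold of 0.1 292, the fit without shScr libraries 1 and 3 together 120, and fits without 1 library 0 to 900. Against 0 of the 10 genes called, DESeq2 called 4, no filter 5, limma-voom 1, a threshold of 0.1 1, and fits without 1 library 0 to 2. The median of the 9 targets was 0.219 to 0.488 without 1 library, with 0.474 when shScr library 3 was left out and the top value when shScr library 2 was. The receptor ratio difference was 0.189 when shScr library 3 was left out and 0.723 when shScr library 2 was. The cause of these shifts was not tested. Genes with few reads, such as Il1b, are limited by depth.

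The replicate numbers were not taken to pair the libraries: same-numbered libraries correlated in their deviations at 0.081, 0.154 and 0.057, and 4 of the 6 libraries correlated best with their own number. With the numbers as a block, edgeR called 629 genes and 4 of the 10 (Tsc22d3, Klf9, Hif3a and Map3k6), the median of the 9 targets was 0.412 and the receptor ratio difference 0.423.

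Other signs turned, all in log2. With library totals only, Hspa8 was -0.0087 and Nr1d1 -0.0085, and the medians of receptor partners and other induced genes were -0.012 and -0.013. With a regional score as a covariate, Nr3c1 was -0.07, Zbtb16 -0.483, Cdkn1a -0.028, Hsp90ab1 0.003, Hsd11b1 -0.202, Ndrg2 0.038 and Nr1d1 -0.211. With sex as a covariate, the median of other induced genes was -0.047. Without a change of sign, the median of hormone handling was 0.055 with the regional score. Without shScr libraries 1 and 3 together, Nr3c1 was -0.109, Zbtb16 -0.115, Cdkn1a -0.192, Hsp90ab1 0.031, Hsp90aa1 0.049, Srd5a1 0.081, Ndrg2 0.021, Nr1d1 -0.136 and Nr3c2 0.067. Over the fits without 1 library, the range was -0.005 to 0.045 for the median of receptor partners and -0.032 to 0.121 for that of other induced genes. Single genes that turned there ranged from -0.087 to 0.524 (Zbtb16), -0.046 to 0.028 (Hsp90ab1), -0.05 to 0.038 (Hsp90aa1), -0.148 to 0.107 (Srd5a1), -0.29 to 0.023 (Crh), -0.062 to 0.138 (Nr1d1) and -0.189 to 0.013 (Per1).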
